A study of Arabidopsis thaliana with 12 samples.

Results

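Expression was examined for 7 genes of jasmonate conjugation and turnover, out of 33602 genes counted in each library of the series. The genes were taken by locus: JAR1 (AT2G46370), the jasmonate oxidase genes JOX1 (AT3G11180), JOX2 (AT5G05600), JOX3 (AT3G55970) and JOX4 (AT2G38240), and the cytochrome P450 genes CYP94B3 (AT3G48520) and CYP94C1 (AT2G27690). All 7 passed the expression filter that left 21890 genes for testing. CYP94B3 passed only through its level in open flowers and had 0 or 1 count in every control bud library.

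JAR1 joins jasmonic acid to isoleucine and so makes JA-Ile, the hormone form that binds the co-receptor of the F-box protein COI1 and a JAZ repressor. COI1 works within an SCF ubiquitin ligase, in which the SKP1-like protein ASK1 links the F-box protein to the cullin. JOX enzymes are 2-oxoglutarate-dependent dioxygenases that hydroxylate free jasmonic acid and draw it away from JAR1. CYP94B3 hydroxylates JA-Ile and CYP94C1 carries the oxidation on to a carboxy form. Jasmonate is known in flowers for filament elongation, anther opening and pollen maturation, and throughout the plant for the wound response. Many turnover genes are themselves jasmonate-responsive.

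RNA was sequenced from floral buds and from open flowers of Arabidopsis thaliana, with 2 libraries for each of 3 genotypes, making 12 libraries in 6 groups. The labels number no replicates, so replicate 1 and 2 here follow the order of the sample records and only name a library. The ask1 plants are labelled as carrying a Ds transposon insertion, ASK1 WT plants as having the wild-type allele, and the remaining plants as Col-0; every sample has the strain label Col-0. All plants grew under 16 h of light at 21 °C and 8 h of darkness at 19 °C, and primary inflorescences were sampled 5 h after dawn, at 10 to 50 mg of tissue per extract. Neither plant age nor the number of plants per extract is given, and no label states whether the 2 replicates of a group are different plants; p-values thus measure the spread between these libraries, which may be technical.

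Libraries held 13780265 to 23426466 counts in genes. The target gene ASK1 (AT1G75950) stood at 10.1 and 29.1 CPM (counts scaled to a common library size) in ask1 buds, at 50.9 and 29.6 CPM in ask1 open flowers and at 247 to 310 CPM in the 8 control libraries. Summed levels of 6 tapetum genes were 741 to 913 CPM in buds and 7.47 to 12.1 CPM in open flowers, which separated the labelled tissues. Summed levels of 7 mature-pollen genes were 53.5 to 142.9 CPM in ask1 buds against 1463 to 1735 CPM in control buds, and 457.9 to 506.1 CPM in ask1 open flowers against 3859 to 4770 CPM in control flowers. In such bulk tissue, fewer cells of a type and less RNA per cell cannot be told apart. There were 2 libraries that stood apart. In ask1 bud replicate 2 the summed level of 11 touch and wound genes was 597 CPM against 163 CPM in replicate 1. In ask1 open-flower replicate 1, log2 CPM relative to the mean of the other libraries fell with exon length (rank correlation across genes -0.45). Measured in the same way, each of the other libraries stood at 0.03 to 0.13.

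Rises and falls named below passed an adjusted p of 0.05 in edgeR's quasi-likelihood test, with the Benjamini-Hochberg method over all 21890 genes. Changes are log2 fold changes ± SE with n = 2 libraries per group, and levels are CPM scaled by edgeR's TMM factors, which are not divided by gene length unless stated. In ask1 buds JOX2 was higher and JAR1, JOX1 and JOX4 were lower than in ASK1 WT. In ask1 open flowers JOX1, JOX3 and CYP94B3 were lower than in both controls. JOX4 fell against both controls in ask1 buds and was not called in ask1 open flowers, and the ask1 effect differed between the tissues for JOX2, JOX3 and JOX4.

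Set against all genes, the members were called as follows. In ask1 buds, 1 of 7 rose and 3 fell against ASK1 WT, where 8.84% of all tested genes rose and 17% fell. Against Col-0 buds 0 of 7 rose and 2 fell, where 7.04% of genes rose and 14.1% fell. In ask1 open flowers, 0 of 7 rose and 3 fell against ASK1 WT, where 14.1% of genes rose and 15.9% fell, and against Col-0 0 rose and 4 fell, where 12.9% rose and 14.3% fell. These shares of all genes moved with single libraries. Genes higher in ask1 buds than in ASK1 WT numbered 1934, but 890 when ASK1 WT bud replicate 1 was left out and 4235 when ask1 flower replicate 1 was. Genes higher in ask1 flowers than in ASK1 WT numbered 3079, but 831 without ASK1 WT flower replicate 1 and 5617 without ask1 flower replicate 2. The median change of the 6 members other than CYP94B3 was -0.08 against each control in buds, where both medians over all genes were -0.05. With CYP94B3, whose fitted change rests on control buds at 0 or 1 count, it was 0.34 against ASK1 WT and 0.32 against Col-0. In open flowers the median of the 6 was -0.24 against ASK1 WT and -0.66 against Col-0. That of all 7 was -0.50 and -0.88, where both medians over all genes were 0.01. JAR1 and JOX4 fell against both controls in buds, and JOX1, JOX3 and CYP94B3 fell against both in open flowers; these comparisons share the ask1 libraries.

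CYP94B3 is left out of the counts of steps from buds to open flowers, since it was tested only through its level in open flowers. It stays in the counts of 7 members below, where it was not called. Between the control buds, at 0 or 1 count, it could not have been called. From buds to open flowers, 3 of the other 6 members rose and 1 fell in Col-0, where 18.8% of genes rose and 17.1% fell. In ASK1 WT 3 of 6 rose and 1 fell, where 18.4% and 16.9% of genes did so, and in ask1 2 of 6 rose and 3 fell, where 22.2% and 15.5% did so. The ask1 effect against ASK1 WT was higher in open flowers than in buds for 1 of 7 members and lower for 2, where 4.45% of genes were higher and 2.36% lower. The same 3 members were called with Col-0 as the control, where 4.96% of genes were called; these 2 comparisons share the ask1 libraries. Between ASK1 WT and Col-0, edgeR called 0 of 7 members in buds, where 0.32% of genes were called, and 0 of 7 in open flowers, where 0.0411% were. DESeq2 called 0 in each tissue as well. An unadjusted edgeR p under 0.05 was found for 2 of 7 members in buds, where 1763 of 21890 genes had one. In open flowers it was found for 0 of 7, where 790 genes had one. Those in buds were JOX2 at -0.69 ± 0.24 and JOX4 at 0.76 ± 0.32 (edgeR Benjamini-Hochberg adjusted p = 0.407 and 0.571).

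**Figure D1:**
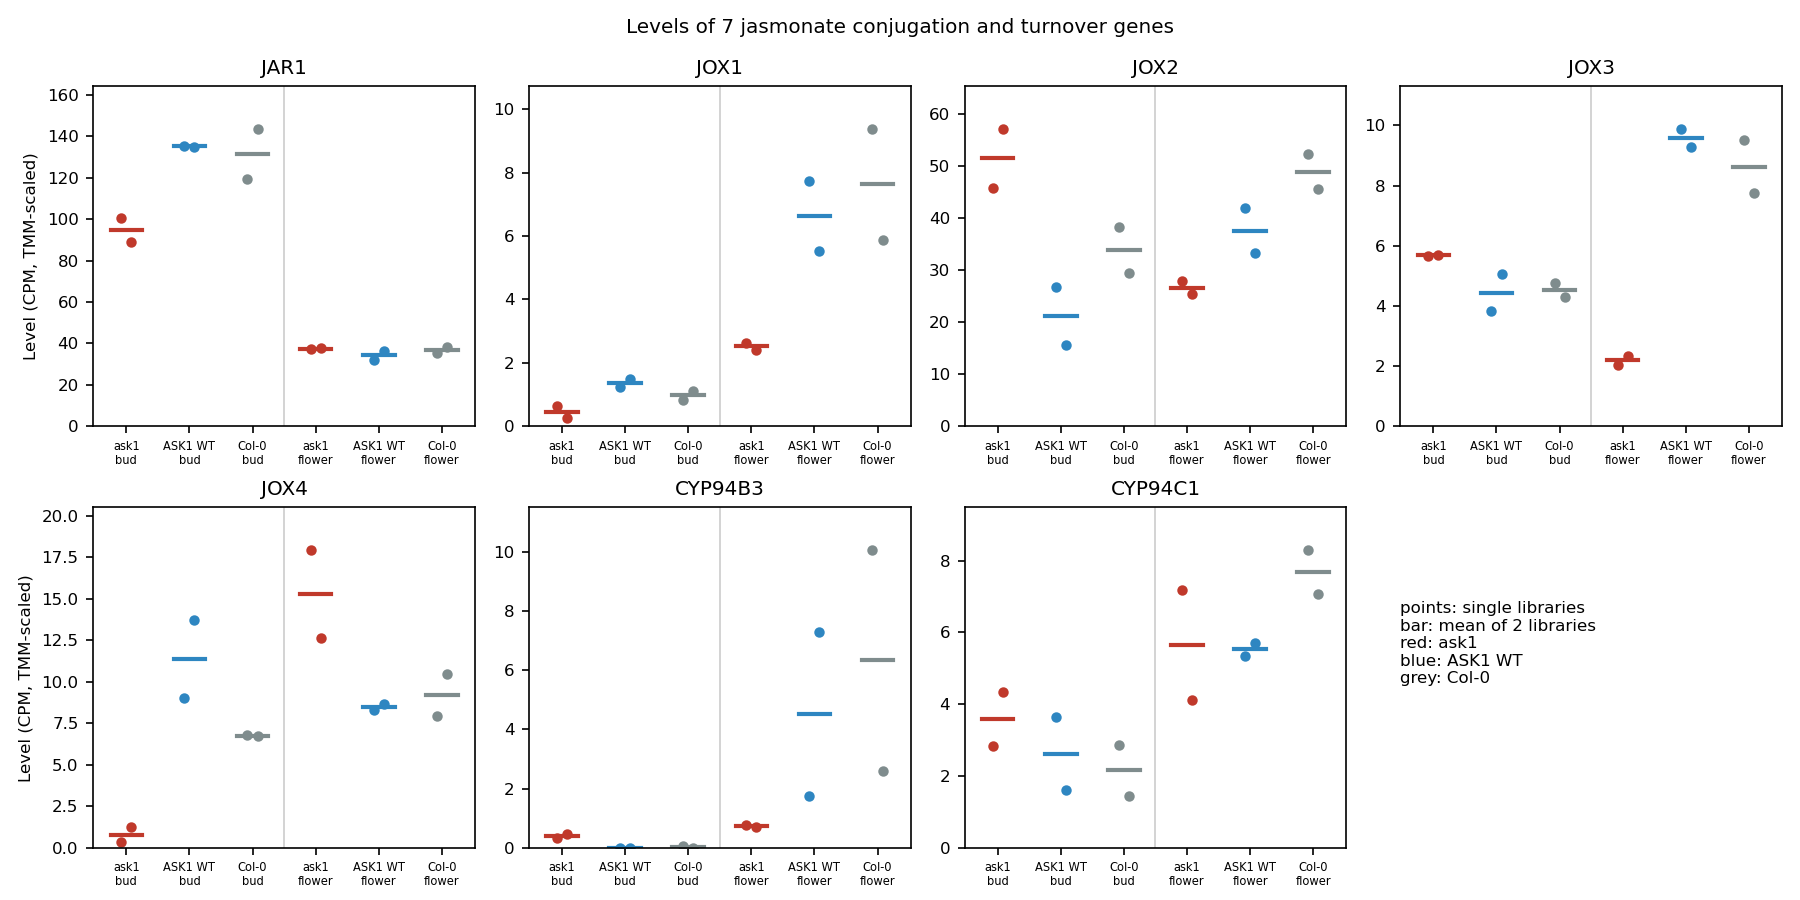
Levels of the 7 genes in each library, in TMM-scaled CPM on linear axes that start at 0, by genotype and tissue; points are single libraries and bars are means of 2. JOX4 stood at 0.327 and 1.29 CPM in ask1 buds and at 12.7 and 17.9 CPM in ask1 open flowers, and JAR1 was higher in buds than in open flowers in all 3 genotypes.

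JAR1 lies on chromosome 2 at 19033586 to 19036683 on the plus strand (TAIR10.1) and has 5 coding exons. It stood at 100.5 and 88.8 CPM in ask1 buds, at 135.3 and 134.8 CPM in ASK1 WT buds and at 119.3 and 143.6 CPM in Col-0 buds. Its levels in open flowers were 37.3 and 37.6 CPM in ask1, at 32.2 and 36.3 CPM in ASK1 WT and at 35.2 and 38.3 CPM in Col-0. Both ask1 bud libraries lay below all 4 control bud libraries, whereas the ask1 flower libraries lay within the range of the controls. JAR1 fell in ask1 buds by 0.51 ± 0.13 on the log2 scale against ASK1 WT (edgeR Benjamini-Hochberg adjusted p = 0.0150) and by 0.47 ± 0.13 against Col-0 (adjusted p = 0.0260). In ask1 open flowers the change was 0.13 ± 0.13 against ASK1 WT (adjusted p = 0.495) and 0.02 ± 0.13 against Col-0 (adjusted p = 0.917). The difference of the ask1 effect between the tissues was 0.64 ± 0.19 against ASK1 WT and was not called (adjusted p = 0.0665). It was called with the length trend removed, at 0.86 (adjusted p = 0.0149), and without ask1 flower replicate 1 or 2 (adjusted p = 0.0370 and 0.00692). The fall in buds was small and its calls were lost without ask1 bud replicate 2, at -0.42 against ASK1 WT (adjusted p = 0.116) and -0.38 against Col-0 (adjusted p = 0.171), without either ASK1 WT bud library (adjusted p = 0.0796 and 0.0746, against ASK1 WT) and without Col-0 bud replicate 2 or ask1 bud replicate 1 (adjusted p = 0.231 and 0.0546, against Col-0). Against Col-0 it was lost too when any control flower library was left out (adjusted p = 0.0756 to 0.0762).

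Open flowers held less JAR1 than buds in every genotype, by 1.84 ± 0.14 on the log2 scale in Col-0 (fall; edgeR Benjamini-Hochberg adjusted p = 2.18e-06), 1.98 ± 0.14 in ASK1 WT (adjusted p = 1.50e-06) and 1.34 ± 0.13 in ask1 (adjusted p = 2.47e-05). Ordered by level, the 3 bud groups preceded the 3 flower groups, with ASK1 WT and Col-0 buds overlapping at the top, ask1 buds below them, and the flower groups overlapping at the bottom. Per kilobase of exon JAR1 was the most abundant of the 7 genes in the control buds, at 43.8 to 52.8 CPM per kb.

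The 4 JOX genes lie apart on chromosomes 2, 3 and 5. Their coding sequences were 62.5% to 79.1% identical in pairs, the closest pair being JOX1 and JOX2, and the longest stretch identical between any pair was 28 nt, against reads of 150 nt. No exon of a member overlapped another annotated gene on either strand. The promoters of JOX1, JOX3 and JOX4 are shown because JOX1 and JOX3 both fell in ask1 open flowers, while JOX4 fell in ask1 buds. JOX1 fell in ask1 buds too, against ASK1 WT only. CYP94B3 also fell in ask1 open flowers, and its promoter is not shown. Each promoter shown is the 300 bases before the annotated gene start in the RefSeq annotation of TAIR10.1, written 5′ to 3′ on the gene's strand. Capitals mark the G-box CACGTG, which reads the same on both strands, or a related hexamer. The related ones searched were CACATG with its reverse complement CATGTG, and CACGTT with its reverse complement AACGTG, so both strands were covered. MYC transcription factors are known to bind hexamers of this kind.
JOX1, chr3:3503617-3503916, plus strand: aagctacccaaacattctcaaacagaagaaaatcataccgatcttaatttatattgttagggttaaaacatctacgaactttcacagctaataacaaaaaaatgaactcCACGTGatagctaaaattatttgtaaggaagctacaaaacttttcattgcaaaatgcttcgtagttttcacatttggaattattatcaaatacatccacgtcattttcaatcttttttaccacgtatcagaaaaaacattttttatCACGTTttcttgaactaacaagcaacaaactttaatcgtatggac
JOX3, chr3:20769411-20769710, minus strand: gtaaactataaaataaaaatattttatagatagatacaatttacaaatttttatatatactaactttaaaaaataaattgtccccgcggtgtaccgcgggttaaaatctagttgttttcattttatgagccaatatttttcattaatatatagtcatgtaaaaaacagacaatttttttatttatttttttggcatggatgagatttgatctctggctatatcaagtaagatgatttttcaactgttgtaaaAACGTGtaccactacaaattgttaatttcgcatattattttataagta
JOX4, chr2:16014992-16015291, minus strand: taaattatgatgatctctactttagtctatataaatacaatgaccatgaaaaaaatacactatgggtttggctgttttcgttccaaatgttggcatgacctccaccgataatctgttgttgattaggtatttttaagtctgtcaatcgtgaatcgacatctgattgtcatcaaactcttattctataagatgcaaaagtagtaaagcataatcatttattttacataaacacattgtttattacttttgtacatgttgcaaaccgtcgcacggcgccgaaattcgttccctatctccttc
JOX1 held a CACGTG at -191 and a CACGTT at -45 from the start, JOX3 held an AACGTG at -48, and JOX4 held none of the 5 hexamers in this window. Of the same windows of 27561 protein-coding genes, 1946 (7.06%) held CACGTG and 7085 (25.7%) held any of the 5. Among the other members, JAR1 held a CACATG at -138, JOX2 a CACATG at -62 in a window that shares bases with an exon of a neighbouring gene, CYP94C1 a CACATG at both -153 and -63, and CYP94B3 none. Such matches only describe the letters of the window.

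JOX4 lies on chromosome 2 at 16012535 to 16014991 on the minus strand and showed the deepest fall of the 7 genes in ask1 buds. It stood at 0.327 and 1.29 CPM there (6 and 19 counts), at 9.02 and 13.7 CPM in ASK1 WT buds and at 6.79 and 6.72 CPM in Col-0 buds. Its levels in open flowers were 17.9 and 12.7 CPM in ask1, at 8.32 and 8.69 CPM in ASK1 WT and at 7.93 and 10.5 CPM in Col-0. Both ask1 bud libraries were below every control bud library, and both ask1 flower libraries were above every control flower library.

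JOX4 fell in ask1 buds by 3.88 ± 0.43 on the log2 scale against ASK1 WT (14.8-fold, edgeR Benjamini-Hochberg adjusted p = 7.15e-05) and by 3.13 ± 0.44 against Col-0 (8.74-fold, adjusted p = 4.92e-04). In open flowers the change was 0.84 ± 0.31 against ASK1 WT (adjusted p = 0.0631) and 0.73 ± 0.31 against Col-0 (adjusted p = 0.106), neither passing the threshold. The first was called by DESeq2, at 0.81 (adjusted p = 0.0462), and without ask1 bud replicate 1 or 2 (adjusted p = 0.0268 and 0.0269). The ask1 effect against ASK1 WT was higher in open flowers than in buds by 4.73 ± 0.53 (adjusted p = 0.00137), and with Col-0 as the control by 3.86 ± 0.54 (adjusted p = 0.00510). Within ask1, JOX4 rose from buds to open flowers by 4.30 ± 0.42 (adjusted p = 2.10e-05), whereas the same step was 0.44 ± 0.32 in Col-0 (adjusted p = 0.335) and -0.42 ± 0.31 in ASK1 WT (adjusted p = 0.342). The fall in buds was called in each alternative run, but its size rested on which ask1 bud library was used, at -5.09 without replicate 2 and -3.14 without replicate 1 against ASK1 WT. The value in ask1 open flowers against ASK1 WT was 0.52 without replicate 1, the library with the length trend, and 1.07 without replicate 2 (adjusted p = 0.250 and 0.0158). Against Col-0 it was 0.96 without replicate 2 (adjusted p = 0.0283). The difference between the tissues against ASK1 WT was 3.98 without ask1 bud replicate 1 and 5.94 without replicate 2, and was called in both.

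JOX3, which RefSeq names JRG21, lies on chromosome 3 at 20766735 to 20769410 on the minus strand. It stood at 2.06 and 2.36 CPM in ask1 open flowers, at 9.90 and 9.27 CPM in ASK1 WT flowers and at 9.51 and 7.74 CPM in Col-0 flowers. In buds it stood at 5.67 and 5.69 CPM in ask1, at 3.83 and 5.07 CPM in ASK1 WT and at 4.77 and 4.31 CPM in Col-0. The ask1 flower libraries were the lowest of all 12, and the ask1 bud libraries were slightly above the control buds.

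JOX3 fell in ask1 open flowers by 2.11 ± 0.21 on the log2 scale against ASK1 WT (4.33-fold, edgeR Benjamini-Hochberg adjusted p = 5.08e-05) and by 1.96 ± 0.21 against Col-0 (3.89-fold, adjusted p = 9.27e-05). In buds its change was 0.34 ± 0.20 and 0.32 ± 0.20 (adjusted p = 0.253 and 0.299). The ask1 effect was lower in open flowers than in buds by 2.46 ± 0.29 against ASK1 WT (difference -2.46, adjusted p = 0.00166) and by 2.28 ± 0.29 with Col-0 as the control (difference -2.28, adjusted p = 0.00342). From buds to open flowers JOX3 rose by 0.92 ± 0.20 in Col-0 and 1.10 ± 0.19 in ASK1 WT (adjusted p = 0.00344 and 0.00112) and fell by 1.36 ± 0.22 in ask1 (adjusted p = 6.32e-04). The calls against each control in open flowers, the tissue steps and the difference against ASK1 WT held in each alternative run, including without the library with the length trend, where the fall against ASK1 WT was -2.07.

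JOX1 lies on chromosome 3 at 3503917 to 3507113 on the plus strand. It stood at 2.63 and 2.41 CPM in ask1 open flowers, at 7.74 and 5.54 CPM in ASK1 WT flowers and at 9.38 and 5.88 CPM in Col-0 flowers. In buds it was scarce, at 0.655 and 0.271 CPM in ask1 (12 and 4 counts), 1.23 and 1.50 CPM in ASK1 WT and 0.842 and 1.12 CPM in Col-0. The ask1 libraries were below all 4 controls in each tissue.

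JOX1 fell in ask1 open flowers by 1.40 ± 0.32 on the log2 scale against ASK1 WT (edgeR Benjamini-Hochberg adjusted p = 0.00783) and by 1.60 ± 0.32 against Col-0 (adjusted p = 0.00466). In buds it fell by 1.51 ± 0.47 against ASK1 WT (adjusted p = 0.0363), and its change against Col-0 was -1.02 ± 0.49 (adjusted p = 0.174). The difference of the ask1 effect between the tissues was 0.11 ± 0.53 (adjusted p = 0.931). It rose from buds to open flowers in all 3 genotypes, by 2.95 ± 0.36 in Col-0, 2.27 ± 0.34 in ASK1 WT and 2.38 ± 0.44 in ask1 (adjusted p = 7.44e-05, 3.63e-04 and 0.00154). The bud call was lost without ask1 bud replicate 2, at -1.06 (adjusted p = 0.202), or either ASK1 WT bud library (adjusted p = 0.0815 and 0.169), and the flower call against ASK1 WT was lost without ASK1 WT flower replicate 1, at -1.21 (adjusted p = 0.0658).

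JOX2 lies on chromosome 5 at 1672070 to 1674770 on the plus strand and was the most abundant JOX gene per length in all libraries but ASK1 WT bud replicate 2, where JOX4 was. It stood at 45.7 and 57.2 CPM in ask1 buds, at 26.7 and 15.6 CPM in ASK1 WT buds and at 38.2 and 29.5 CPM in Col-0 buds. Its levels in open flowers were 27.8 and 25.4 CPM in ask1, at 41.8 and 33.3 CPM in ASK1 WT and at 52.2 and 45.5 CPM in Col-0. The ask1 libraries were above every control in buds and below every control in open flowers.

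JOX2 rose in ask1 buds by 1.29 ± 0.24 on the log2 scale against ASK1 WT (2.44-fold, edgeR Benjamini-Hochberg adjusted p = 0.00242), and its change against Col-0 was 0.60 ± 0.23 (adjusted p = 0.0956). The latter was called when only the 2 groups entered the fit, at 0.66 (adjusted p = 0.0240), and without ASK1 WT bud replicate 1 or 2 (adjusted p = 0.0457 for each). The controls themselves were apart in buds, with ASK1 WT at -0.69 ± 0.24 from Col-0 (unadjusted p = 0.0156, adjusted p = 0.407). In ask1 open flowers JOX2 fell by 0.88 ± 0.24 against Col-0 (adjusted p = 0.0204), and its change against ASK1 WT was -0.50 ± 0.24 (adjusted p = 0.133). The difference of the ask1 effect between the tissues was -1.79 ± 0.34 against ASK1 WT (adjusted p = 0.0127) and -1.48 ± 0.33 against Col-0 (adjusted p = 0.0321). Without both libraries that stood apart, the difference against ASK1 WT was -1.81 and no longer called (adjusted p = 0.0632). From buds to open flowers JOX2 rose by 0.84 ± 0.24 in ASK1 WT and fell by 0.95 ± 0.24 in ask1 (adjusted p = 0.0179 and 0.00903), and its step in Col-0 was 0.53 ± 0.23 (adjusted p = 0.106). The tissue call in ASK1 WT was lost without bud replicate 2 or flower replicate 1 (adjusted p = 0.155 and 0.101) and in the fit of only the groups compared (adjusted p = 0.138), and that in ask1 without bud replicate 2 or either flower library (adjusted p = 0.0613, 0.0579 and 0.0740) and without both libraries that stood apart (adjusted p = 0.135). The Col-0 step was called in the fit of only the groups compared, at 0.54 (adjusted p = 0.00831), and without ASK1 WT bud replicate 1 or 2 (adjusted p = 0.0477 and 0.0479). The rise in ask1 buds was 1.12 without ask1 bud replicate 2, the library with the high touch and wound sum (adjusted p = 0.0213). Its call was lost when only the 2 groups compared entered the fit, at 1.35 (adjusted p = 0.0623), and the flower call was lost without either ask1 flower library or Col-0 flower replicate 1 (adjusted p = 0.0858, 0.105 and 0.0868) and with the length trend removed (adjusted p = 0.0542).

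The make-up of the JOX family varied by tissue and genotype. Per kilobase of exon, the summed JOX level was 22.3 and 27.5 CPM per kb in ask1 buds and 18.3 to 22.9 CPM per kb in control buds. JOX2 made up 85.8% and 87.0% of that sum in ask1 buds, against 57.7% and 35.4% in buds of ASK1 WT and 69.6% and 64.2% in those of Col-0. JOX4 made up 0.934% and 2.98% in ask1 buds and 18.8% to 47.5% in control buds. In open flowers JOX4 made up more of the sum in ask1 than in the controls, at 44.9% and 38.3% against 13.9% to 20.7%. JOX2 was still the largest share in ask1 flowers, at 45.8% and 50.4%, against 52.2% to 60.2% in control flowers. JOX3 made up 3.73% and 5.16% in ask1, against 14.5% and 16.0% in ASK1 WT and at most 12.1% in Col-0. The JOX sum itself was 25.3 and 21.0 CPM per kb in ask1 open flowers and 26.6 to 36.2 CPM per kb in control flowers.

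**Figure D2:**
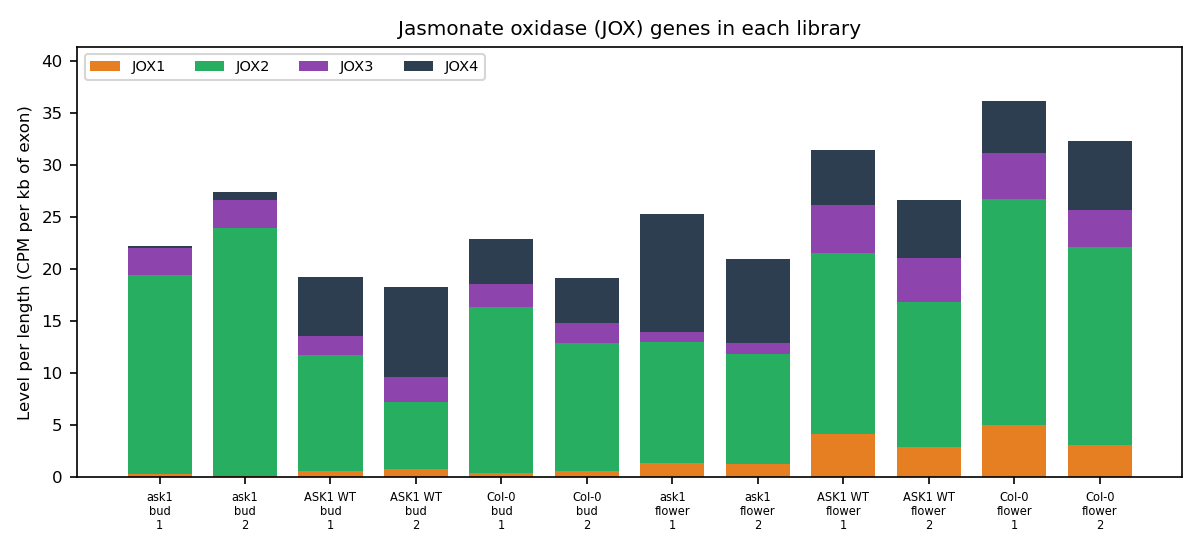
Levels of JOX1 to JOX4 per kilobase of exon (CPM per kb, linear axis from 0), stacked in each of the 12 libraries, with group and replicate number below each bar. JOX4 makes up 0.934% and 2.98% of the stack in ask1 buds and 44.9% and 38.3% in ask1 open flowers.

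The ratio of JAR1 to the JOX sum, both per length, compared the conjugating enzyme's transcript with those of the enzymes that compete for the same substrate. It was 1.66 and 1.19 in ask1 buds, 2.58 and 2.70 in buds of ASK1 WT, and 1.91 and 2.76 in buds of Col-0. The flower ratios were 0.540 and 0.657 in ask1, 0.376 and 0.500 in ASK1 WT and 0.357 and 0.435 in Col-0. The ask1 libraries were below all control buds and above all control flowers. These are ratios of transcript levels, with no test, and say nothing of enzyme amounts or jasmonate.

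The JA-Ile hydroxylase gene CYP94B3 lies on chromosome 3 at 17974853 to 17976774 on the minus strand and has 1 coding exon. In open flowers it stood at 0.771 and 0.707 CPM in ask1 (12 counts in each library), at 1.75 and 7.29 CPM in ASK1 WT and at 10.1 and 2.60 CPM in Col-0. In buds it had 6 and 7 counts in ask1, 0 counts in each ASK1 WT library, and 1 and 0 counts in Col-0. Within each control genotype the 2 flower libraries lay further apart, as a ratio, than the lowest control library lay from the higher ask1 library.

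CYP94B3 fell in ask1 open flowers by 2.58 ± 0.83 on the log2 scale against ASK1 WT (edgeR Benjamini-Hochberg adjusted p = 0.0408) and by 3.09 ± 0.82 against Col-0 (adjusted p = 0.0212). Against ASK1 WT the call was lost under 11 of 18 alternatives. The values rested on single control libraries, at -1.33 without ASK1 WT flower replicate 2 (adjusted p = 0.302) and -1.89 without Col-0 flower replicate 1 (adjusted p = 0.170), and each call was lost without either ask1 flower library (adjusted p = 0.250 and 0.231 against ASK1 WT, 0.185 and 0.159 against Col-0). In buds, the summed count of ask1 was at least 4.55-fold higher than in ASK1 WT, taking a floor of 3 counts over the ASK1 WT group, and 14.0-fold higher than in Col-0 with a 95% counting interval of 2.11 to 596. The edgeR test did not call either difference (adjusted p = 0.173 and 0.277), while DESeq2 called the one against ASK1 WT (adjusted p = 0.00900). Summed counts in open flowers were 227-fold those in buds in Col-0 (95% counting interval 40.3 to 9016) and at least 48.2-fold in ASK1 WT. These are given with no test, since the gene was tested only through its level in open flowers. The step in ask1 was 0.89 ± 1.13 (adjusted p = 0.562). The intervals cover counting error only.

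CYP94C1, on chromosome 2 at 11809279 to 11811280 on the plus strand, stood at 2.84 and 4.34 CPM in ask1 buds, at 3.64 and 1.60 CPM in ASK1 WT buds and at 2.86 and 1.46 CPM in Col-0 buds. Its levels in open flowers were 7.20 and 4.12 CPM in ask1, at 5.35 and 5.72 CPM in ASK1 WT and at 8.29 and 7.06 CPM in Col-0. The genotypes overlapped in both tissues. Its ask1 change against ASK1 WT was 0.47 ± 0.44 in buds and 0.03 ± 0.39 in open flowers (edgeR Benjamini-Hochberg adjusted p = 0.497 and 0.972), the latter with the opposite sign under other scaling, and against Col-0 it was 0.72 ± 0.44 and -0.44 ± 0.39 (adjusted p = 0.297 and 0.419). Over the tissues it rose in Col-0 by 1.83 ± 0.42 (adjusted p = 0.00579), a call lost without Col-0 bud replicate 2, at 1.42 (adjusted p = 0.0646), and stood at 1.10 ± 0.42 in ASK1 WT (adjusted p = 0.0637) and 0.66 ± 0.41 in ask1 (adjusted p = 0.226). The step in ASK1 WT was called under 7 of 18 alternatives, among them DESeq2 (adjusted p = 0.0397), no filter (0.0460) and the fit of only the groups compared (0.00897), and was 1.78 without ASK1 WT bud replicate 1 (adjusted p = 0.0255).

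**Figure D3:**
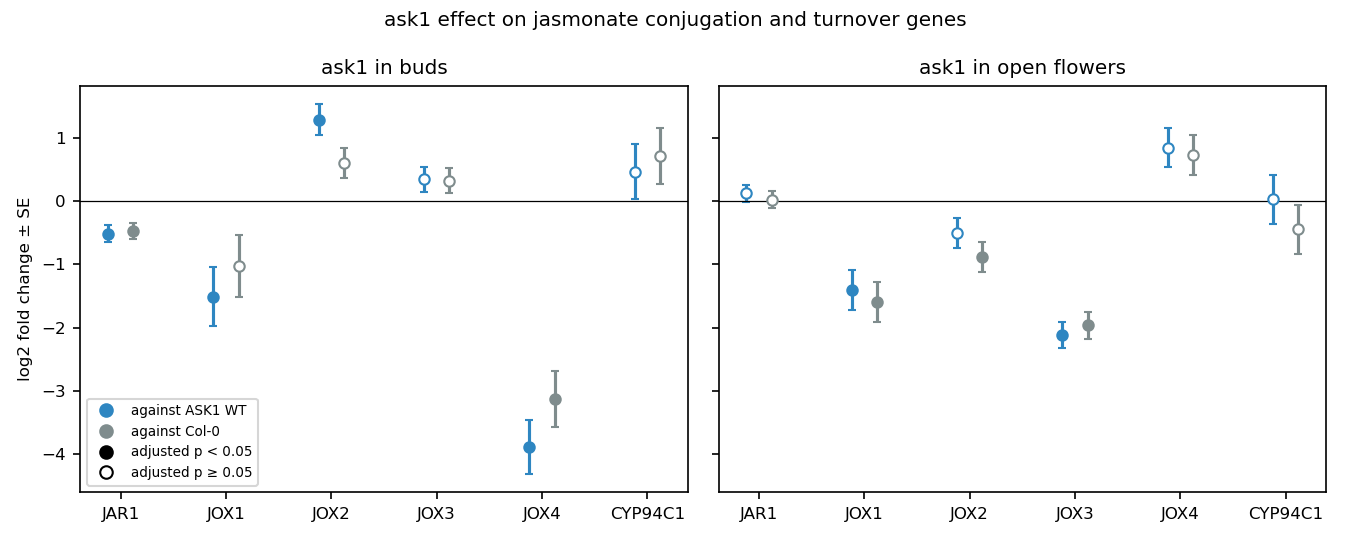
Change in ask1 as log2 fold change ± SE from edgeR, in buds (left) and open flowers (right), against ASK1 WT (blue) and Col-0 (grey), with filled points for an adjusted p under 0.05; CYP94B3 is left out because control buds held 0 or 1 count. JOX4 stands at -3.88 and -3.13 in buds and at 0.84 and 0.73 in open flowers, and JOX3 at -2.11 and -1.96 in open flowers.

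The other genes of the pathway were read from lists that were chosen with earlier results of these data known. Counts here are of genes called in the same direction against both controls, where over all genes in buds 5.62% were higher and 12.6% lower, and in open flowers 10.5% were higher and 12.8% lower. Of 9 other turnover and conversion genes, buds had 2 that rose and 1 that fell, and open flowers had 1 that rose and 5 that fell. CYP94B1, a further JA-Ile hydroxylase gene, fell in ask1 open flowers by 1.89 ± 0.32 against ASK1 WT (edgeR Benjamini-Hochberg adjusted p = 0.00154). ST2A, whose product sulfates hydroxylated jasmonate, fell in both tissues, by 1.31 ± 0.27 in buds and 1.80 ± 0.27 in open flowers against ASK1 WT (adjusted p = 0.00449 and 6.91e-04). The esterase gene MES10 rose in both tissues (adjusted p = 0.00307 and 6.48e-04), by 1.36 ± 0.20 in open flowers, and the amidohydrolase gene IAR3, which can split JA-Ile, rose in buds by 0.62 ± 0.12. ILL6, an amidohydrolase gene of the same kind, fell in open flowers by 0.76 ± 0.12.

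Of 12 tested jasmonate synthesis genes on a list of 13, 8 rose and 0 fell in ask1 buds, and 0 rose and 6 fell in ask1 open flowers. LOX4, a lipoxygenase gene of the first step, stood at 35.7 and 70.4 CPM in ask1 buds and 7.86 to 12.4 CPM in control buds, and at 6.94 and 8.83 CPM in ask1 flowers and 21.3 to 53.4 CPM in control flowers. Its change against ASK1 WT was 2.65 ± 0.41 in buds and -1.80 ± 0.41 in open flowers (edgeR Benjamini-Hochberg adjusted p = 7.85e-04 and 0.00821). OPCL1, a CoA ligase gene, changed by 1.58 ± 0.28 and -0.93 ± 0.28. Its ask1 bud libraries had a mean of 65.5 CPM and an SD of 27.5 CPM. The allene oxide cyclase genes AOC2 and AOC3 rose by 2.59 ± 0.44 and 1.41 ± 0.35 in buds. In ask1 buds their means were 4.70 and 16.4 CPM, with SDs of 0.608 and 9.59 CPM. These genes are close copies of one another, and reads may be split between them.

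Of 19 jasmonate signalling genes, 6 rose and 4 fell in ask1 buds, and 1 rose and 6 fell in ask1 open flowers. COI1 (AT2G39940) was not called, at -0.09 ± 0.16 in buds and -0.26 ± 0.16 in open flowers against ASK1 WT (edgeR Benjamini-Hochberg adjusted p = 0.739 and 0.238). The 4 that fell in buds were the stamen transcription factor genes MYB21, MYB24, MYB57 and MYB108, with MYB57 at -5.43 ± 0.51 and MYB108 at -3.37 ± 0.31 against ASK1 WT. Both were lower in Col-0 buds than in ASK1 WT buds, so these sizes depend on the control. Mean MYB57 was 0.346 CPM in ask1 buds, where 3 counts are 0.174 and 0.218 CPM, 14.8 CPM in ASK1 WT and 4.71 CPM in Col-0. Mean MYB108 was 2.28, 23.0 and 8.69 CPM in the same order. MYB24 fell in buds, by 1.86 ± 0.24, and rose in open flowers, by 2.85 ± 0.22 (adjusted p = 2.21e-04 and 1.10e-05). MYC2, the central jasmonate transcription factor gene, rose in buds by 2.04 ± 0.35. Its 2 ask1 bud libraries lay far apart, with a mean of 135 CPM and an SD of 84.9 CPM. The repressor genes JAZ5, JAZ7 and JAZ8 fell in open flowers by 2.07 ± 0.34, 1.64 ± 0.48 and 3.02 ± 0.76.

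**Figure D4:**
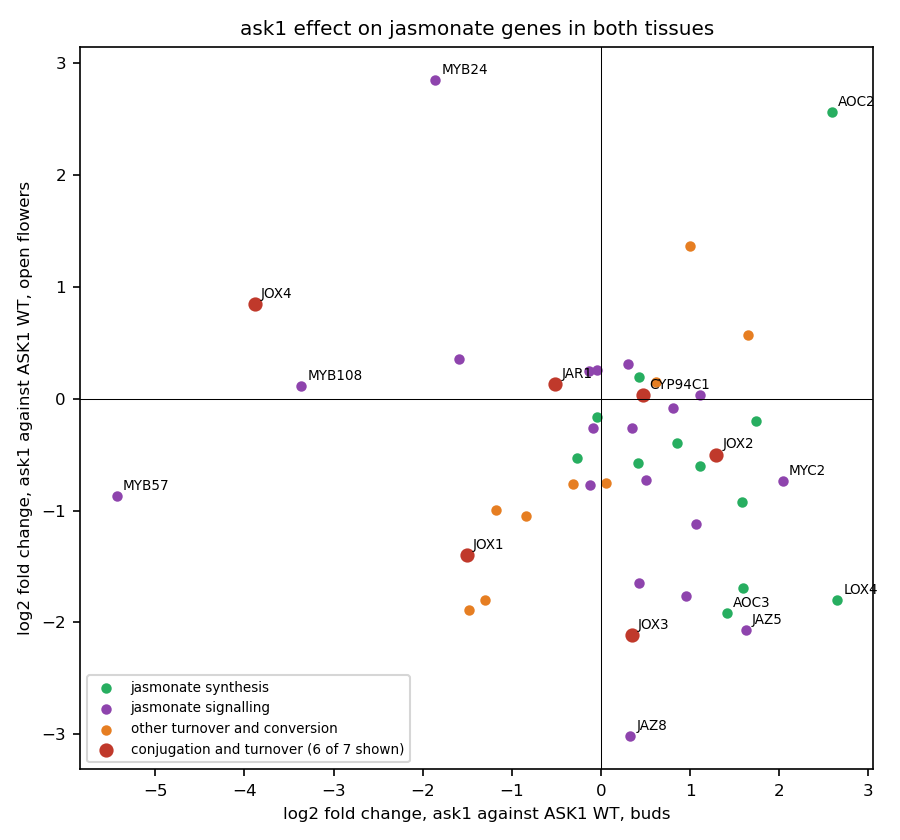
Log2 fold change of ask1 against ASK1 WT in buds (horizontal) and in open flowers (vertical) for jasmonate genes, each point a gene and colours the lists; CYP94B3 is not drawn. LOX4 lies at 2.65 in buds and -1.80 in open flowers, JOX2 at 1.29 and -0.50, JOX4 at -3.88 and 0.84, and MYB24 at -1.86 and 2.85.

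Marker lists are given beside these results, and not all of them moved. All 7 mature-pollen genes fell in ask1 in both tissues against both controls, with median changes of -5.14 in buds and -3.29 in open flowers against ASK1 WT. Of 6 tapetum genes, 0 were called in buds and 1 rose in open flowers against both controls (LAP6, 0.65 ± 0.13 against ASK1 WT). Of 11 touch and wound genes, 6 rose in buds and 2 fell in open flowers against both controls, with RRTF1 at 0.764 and 15.6 CPM in the 2 ask1 bud libraries and 0 to 0.103 CPM in control buds. The summed level of the 11 genes was 163 and 597 CPM in ask1 buds, 237 to 288 CPM in ASK1 WT buds, 94.0 to 107 CPM in Col-0 buds, 498 to 522 CPM in ask1 flowers and 534 to 784 CPM in control flowers. Of the 2 ask1 bud libraries, replicate 2 had more JOX4, JOX2, CYP94B3 and CYP94C1 than replicate 1. It had less JOX1 and JAR1, and JOX3 was alike in both. The part of these marker levels in the changes of the 7 genes was not tested.

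Likeness of pattern was measured by Pearson's r of log2 CPM over the 12 libraries, which share genotype, tissue and depth differences; it is a description. Among jasmonate genes JOX4 was most like MYB108 (r = 0.94) and MYB21 (r = 0.90). JOX1 was most like CYP94B1 (r = 0.95), JOX2 like LOX4 (r = 0.85), JOX3 like JAZ8 (r = 0.88), and CYP94B3 and CYP94C1 like JAZ10 (r = 0.93 and 0.84). Over all tested genes with a mean of at least 1 CPM, JOX4 was closest to AT1G78150 (r = 0.97), the sugar transporter gene SWEET14 (r = 0.96) and AT3G56275 (r = 0.96). JOX3 was closest to CYP78A6, VGT1 and AT3G14870 (r = 0.96, 0.94 and 0.93), and JOX2 to CEP3, ERD5 and LOX4 (r = 0.89, 0.87 and 0.85). JAR1 was closest to ENODL6 (r = 0.997), AT1G30780 (r = 0.995) and AT2G27670 (r = 0.995). JOX1 was closest to AT1G71691, AT4G12917 and AT1G04350 (r = 0.98 each), CYP94B3 to AT5G64120, ACS2 and MEB1 (r = 0.96, 0.95 and 0.95), and CYP94C1 to AT5G01980, AT4G39830 and AT5G19230 (r = 0.95, 0.93 and 0.93).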

How the data were processed

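Total RNA was sequenced as 150-nt paired-end reads, per the labels. The values deposited by the authors are raw read counts per gene, with 1 table per library. Trimmomatic, TopHat2 and HTSeq and the build TAIR10 are named, per the submitters' processing notes; no version, setting or counting strand is stated (not given in the sources used here). Each table's 5 summary lines, 7.60% to 9.70% of each library, were left out. Depth was 13780265 to 23426466 counts in genes, and a floor of 3 counts was 0.128 to 0.218 CPM.

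Groups follow the genotype and tissue labels; replicate numbers follow the order of the sample records. Counts were fitted in edgeR 4.0.16 (R 4.3.3) with its expression filter (minimum count 10, minimum total 15), TMM scaling, 1 mean per group over all 12 libraries, robust quasi-likelihood dispersion and 6 residual degrees of freedom, with Benjamini-Hochberg adjustment over 21890 genes. The SE is the absolute log2 fold change divided by the square root of F. The fit was also run on simulated counts, and the outcome is not given here. Those counts held no length trend of a single library and no library set apart. Exon lengths, positions and sequences come from TAIR10.1, in which 32835 of 33602 identifiers were found; coding sequences were aligned with Biopython 1.88 and figures drawn with matplotlib 3.10.9 (Python 3.11.15). The count tables hold no coordinates.

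All 7 members are named. Genes of the other lists were named as up to 4 with the largest change among those called against both controls, with COI1 and ASK1 always named, and for each member the 3 tested genes of most similar pattern. Not every gene so named is printed, and MYB21 and JAZ10 were added after their values were seen. The members and lists were chosen with earlier results of these data known. Alternatives were DESeq2 1.42.0, RLE scaling, no filter, a fit of only the groups compared, removal of the length trend, each library left out, and the 2 libraries that stood apart left out together. Col-0 as the control for the tissue difference was added after seeing the data.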

Additional observations from a re-analysis of the deposited data

Results flagged for a closer look

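The ask1 effect against ASK1 WT differed between open flowers and buds for 3 of the 7 genes, by a test of the difference itself (edgeR, adjusted over all genes). It was higher in open flowers for 1 and lower for 2, where 4.45% of all tested genes were higher and 2.36% lower. JOX4 differed by 4.73, being far lower in ask1 buds and not lower in ask1 open flowers, with an adjusted p of 0.00137. Its size rested on the ask1 bud library kept, at 3.98 without replicate 1 and 5.94 without replicate 2. JOX3 differed by -2.46, being called lower in ask1 open flowers and not called in ask1 buds, with an adjusted p of 0.00166. JOX2 differed by -1.79, with both ask1 bud libraries above the 4 control buds and both ask1 flower libraries below the 4 control flowers, with an adjusted p of 0.0127. Without both libraries that stood apart, the JOX2 difference was -1.81 and was no longer called. All 3 were also called with Col-0 as the control, a choice made after seeing the data. That comparison uses the same ask1 libraries and so is not independent. Groups of 2 libraries are too small for a test of single libraries that lie far from their group.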

How the results depend on the processing

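Of 31 calls on single members, 18 kept their direction and their side of the threshold under every alternative run. Among them were JOX4 in buds against both controls, JOX3 in open flowers against both, and JOX1 in open flowers against Col-0. The tissue differences of JOX3 and JOX4 held as well. The 31 include the tissue steps of CYP94B3 in both controls, and the 18 include its step in Col-0. Those steps lend no support, since the gene was tested only through its level in open flowers. Another 10 results that were not called passed the threshold under at least 1 alternative (25 values in all). No called value changed sign (0 of 41 sign changes). Without the expression filter 1 member was called against Col-0 buds, since JAR1 was lost. Without the 2 libraries that stood apart, 2 members were called against Col-0 open flowers (JOX2 and CYP94B3 were lost) and 1 between ASK1 WT and Col-0 buds (JOX4 at 0.77, adjusted p = 0.0395, edgeR). Leaving out 1 library at a time, members called numbered 2 to 4 against ASK1 WT buds, 1 to 3 against Col-0 buds, 2 to 3 against ASK1 WT flowers and 2 to 4 against Col-0 flowers. Depth limited CYP94B3 in buds and JOX1 and JOX4 in ask1 buds, which rest on a few counts per library. No paired analysis was possible because the labels carry no replicate numbers; those used here follow the order of the sample records. The cause of the changes between alternatives was not tested.

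Small uncalled values changed sign. CYP94C1 against ASK1 WT flowers was -0.0054 under RLE scaling, -0.058 without the filter, -0.0042 in DESeq2 and -0.47 without both libraries, and -0.47 to 0.38 with 1 library left out. JAR1 against Col-0 flowers was -0.024 under RLE scaling, -0.064 without the filter, -0.024 in DESeq2, -0.028 without both libraries, and -0.12 to 0.024 with 1 left out. The tissue difference of JOX1 was -0.030 without the filter, -0.024 in the fit of only the groups compared, -0.51 without both libraries and -0.57 with Col-0 as the control, a choice made after seeing the data, and -0.34 to 0.91 with 1 left out. With 1 left out, CYP94C1 ranged from -0.030 to 1.15 against ASK1 WT buds and its tissue difference from -1.12 to 0.058, and JAR1 from -0.033 to 0.13 against ASK1 WT flowers. Between ASK1 WT and Col-0 buds the ranges were -0.088 to 0.18 for JAR1, -0.24 to 0.16 for JOX3 and -0.43 to 0.82 for CYP94C1. Between the control flowers they were -0.50 to 0.17 for JOX1, -0.31 to 0.093 for JOX4 and -1.85 to 0.77 for CYP94B3.

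Counts over all genes moved more. In the fit of only the groups compared, 2109 and 1653 genes were called in ask1 open flowers against ASK1 WT and Col-0, 748 between the control buds, 397 between the control flowers, 3468 between ask1 tissues and 513 for the tissue difference. DESeq2 called 298 and 31 genes between the controls in buds and in open flowers. Removing the length trend gave 213 genes between the control buds and 2575 for the tissue difference. Without both libraries 7437 genes were called against Col-0 buds, 1170 and 165 between the controls and 4132 for the tissue difference. With 1 library left out, genes called ranged from 3379 to 9092 against ASK1 WT buds, 2537 to 8329 against Col-0 buds, 3222 to 11573 against ASK1 WT flowers and 2882 to 11231 against Col-0 flowers. They ranged from 2 to 655 and 1 to 37 between the controls in buds and in open flowers, 5559 to 10994, 5557 to 10998 and 5580 to 12867 between tissues in Col-0, ASK1 WT and ask1, and 484 to 8571 for the tissue difference. The highest values came without an ask1 flower library.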
